A study of Mus musculus with 12 samples.

Results

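The genes described here are 30 genes of cholesterol synthesis, uptake and export in mouse liver, taken from a fixed list of symbols and found in the count table under those names. The list was chosen with earlier results of these data known. Counts and medians of the 30 genes set against all genes are therefore descriptive. All 30 of 30 were present among the 56748 genes listed, and all 30 were among the 14003 genes with enough counts to be tested. They comprised 5 regulators, 8 enzymes of the mevalonate and prenyl steps, 3 enzymes that build squalene and lanosterol, 9 enzymes that act after lanosterol, 3 genes of sterol traffic, lipoprotein uptake and esterification, and the 2 genes of the sterol export pump. Poly(A)-selected RNA from whole liver was sequenced in 12 libraries, with 3 biological replicates in each of 4 groups: male knockout, male wild type, female knockout and female wild type. Knockout mice were of the line 129/Sv-Cyp2e1tm1Gonz/J, which carries a targeted allele of Cyp2e1, a cytochrome P450 that oxidises ethanol and other small molecules. Wild type mice were 129S1/SvImJ, a separate inbred line, so an effect of the allele and a difference between the lines cannot be told apart. All mice were 16 weeks old, ate normal chow and were kept in shared cages, and no treatment is named. The tissue was bulk liver, in which fewer cells of a type and less RNA per cell cannot be told apart.

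Cells make cholesterol from acetyl-CoA through mevalonate, isoprenoid units, squalene and lanosterol. When sterols in the endoplasmic reticulum run low, the escort protein Scap carries the membrane-bound transcription factor Srebf2 to the Golgi, where it is cut and released to switch on the synthesis enzymes. Insig proteins hold Scap back when sterols are plentiful, while the oxysterol receptor Nr1h3 (LXR alpha) induces genes that move sterols out of the cell. The liver is the main organ that sends cholesterol into bile.

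Cyp2e1 itself stood at 370 ± 45.6 CPM in knockout males, against 10851 ± 568 CPM in wild type males (SD, n = 3 each, with CPM the counts scaled to a common library size). In females it stood at 277 ± 46.2 CPM in knockout livers, against 6546 ± 464 CPM in wild type livers. Its log2 fold change was -4.87 in males and -4.56 in females, so every library matched its genotype label. Total counts per library ran from 15167730 to 25082532. The libraries also differed in how level depended on gene length, measured as the slope of a library's log2 CPM on log2 gene length relative to the mean library. The slope was 0.19 ± 0.10 in female knockout livers, against -0.19 ± 0.04 in female wild type livers, and the female groups did not overlap. In males it was 0.03 ± 0.17 in knockout livers, against -0.02 ± 0.13 in wild type livers, and those groups overlapped.

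Levels are compared between genes per kilobase of gene length, since longer transcripts give more fragments. The length is the one listed for the gene, which may differ from that of its transcript in liver, so the ranking is approximate. Averaged over 12 libraries, Insig1 was highest of the 30 at 156 CPM per kb, followed by Ebp at 141 CPM per kb, Sc5d at 84.8 CPM per kb and Hmgcs1 at 77.6 CPM per kb. Another 4 genes lay far below the rest on the same scale: Mylip at 1.92 CPM per kb, Lbr at 1.83 CPM per kb, Fdps at 1.70 CPM per kb and Ggps1 at 1.03 CPM per kb. The next above them was Lss at 9.00 CPM per kb. Thus Fdps, the farnesyl diphosphate synthase that feeds sterol synthesis, was listed at a lower level per length than all but 1 of the other genes. A second annotated gene, Gm43738, covers 7512 bp of Fdps on the same strand and was listed at 0 counts in all libraries, and Fdps held 1685 counts in all. How fragments in that shared stretch were counted is not given in sources used here, so the Fdps level is uncertain, and the part of the overlap in it was not tested.

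**Figure D1:**
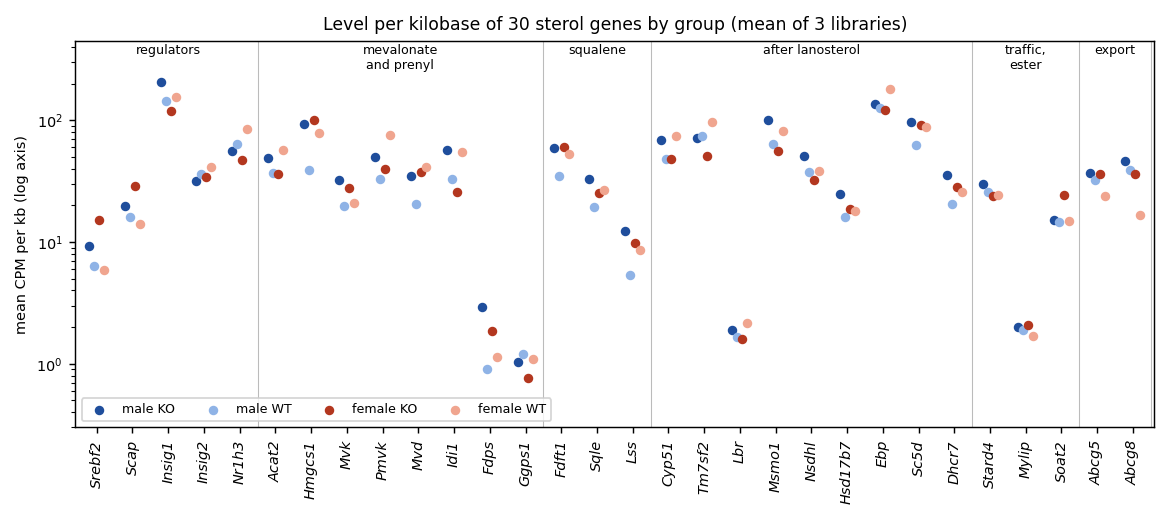
Mean CPM per kb of gene length (log axis) for the 30 genes, ordered by pathway step, with 1 point per group of 3 libraries. Fdps, Ggps1, Lbr and Mylip lie at the bottom in every group, while Insig1 and Ebp lie above 100 CPM per kb in every group.

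Promoter windows of 300 bases (250 before and 50 after the transcription start, from RefSeq, build GRCm38.p6) were on hand for 25 of the 30 genes, in 33 windows, since some genes have several starts. A gene counts as holding a motif if any of its windows does, here and over all genes, so genes with more windows had more chances of a match. They were searched on both strands for a core of the sterol regulatory element, the letters TCACNCCAC, and for the CCAAT box, the letters CCAAT, which are bound by the factor NF-Y at many sterol genes. In the Hmgcs1 window no match of one motif overlapped a match of the other. The sterol regulatory element core was found for 1 of the 25 genes, Hmgcs1, 137 bases upstream of the start, against 1.44% of 27025 genes. CCAAT was found for 22 of the 25, which is 88%, against 41.1% of those genes. For the sterol regulatory element only the core letters given were searched, so an element spelled otherwise was not counted. Windows of 4 synthesis enzymes that behaved differently in the comparisons below, and of the regulator Srebf2, are shown, all on the plus strand. They lie at chr13:119690101-119690400 (Hmgcs1), chr5:114444019-114444318 (Mvk), chr13:8885356-8885655 (Idi1), chr10:76531355-76531654 (Lss) and chr15:82147019-82147318 (Srebf2). Capitals mark CCAAT, which reads ATTGG when it lies on the other strand, and the sterol regulatory element core in Hmgcs1. Mvk holds 5 CCAAT matches, Hmgcs1 4, Idi1 2, and Lss and Srebf2 1 each.
Hmgcs1: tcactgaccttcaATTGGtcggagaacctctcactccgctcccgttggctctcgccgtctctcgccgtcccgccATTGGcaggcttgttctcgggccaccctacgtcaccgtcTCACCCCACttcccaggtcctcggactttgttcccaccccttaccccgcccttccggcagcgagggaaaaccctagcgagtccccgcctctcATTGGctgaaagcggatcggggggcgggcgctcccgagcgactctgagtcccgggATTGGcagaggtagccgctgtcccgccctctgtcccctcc
Mvk: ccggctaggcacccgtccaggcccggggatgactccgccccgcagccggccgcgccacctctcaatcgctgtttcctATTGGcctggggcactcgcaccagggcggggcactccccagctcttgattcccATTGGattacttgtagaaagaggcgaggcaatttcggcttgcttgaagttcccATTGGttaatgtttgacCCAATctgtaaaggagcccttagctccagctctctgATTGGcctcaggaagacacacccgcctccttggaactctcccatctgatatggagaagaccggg
Idi1: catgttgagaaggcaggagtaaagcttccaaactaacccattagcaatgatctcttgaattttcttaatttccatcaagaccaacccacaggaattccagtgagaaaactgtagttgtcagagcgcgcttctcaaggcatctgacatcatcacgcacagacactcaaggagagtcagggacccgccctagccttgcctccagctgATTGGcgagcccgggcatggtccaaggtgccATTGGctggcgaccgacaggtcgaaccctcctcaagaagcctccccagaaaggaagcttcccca
Lss: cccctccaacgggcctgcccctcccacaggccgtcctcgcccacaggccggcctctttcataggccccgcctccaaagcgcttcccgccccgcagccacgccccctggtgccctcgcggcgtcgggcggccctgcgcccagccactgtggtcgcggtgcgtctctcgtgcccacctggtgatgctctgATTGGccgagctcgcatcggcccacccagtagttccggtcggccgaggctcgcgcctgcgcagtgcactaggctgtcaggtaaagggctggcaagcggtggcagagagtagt
Srebf2: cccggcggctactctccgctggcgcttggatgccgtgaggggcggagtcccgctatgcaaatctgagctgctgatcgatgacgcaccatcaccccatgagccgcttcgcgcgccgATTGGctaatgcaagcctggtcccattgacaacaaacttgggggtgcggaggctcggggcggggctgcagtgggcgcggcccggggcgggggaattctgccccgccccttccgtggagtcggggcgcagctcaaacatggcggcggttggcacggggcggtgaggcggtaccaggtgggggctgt
A match is a description of letters only, and no binding was measured.

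In males the synthesis genes were mostly higher in knockout livers, but 1 of 30 passed the test. That gene was Fdps, which rose. Of all genes tested 0.0571% were called in males, 0.0286% higher and 0.0286% lower. Every knockout male lay above every wild type male for 12 of 30 genes, and for 0 of 30 every knockout male lay below. The male groups did not overlap for 9.62% of all genes tested, with knockout higher for 5.1% and lower for 4.52%. The 12 were Acat2, Hmgcs1, Mvk and Fdps of the mevalonate and prenyl steps, all 3 squalene and lanosterol enzymes (Fdft1, Sqle, Lss), Nsdhl, Hsd17b7, Sc5d and Dhcr7 after lanosterol, and the sterol carrier Stard4. The median log2 fold change of the 30 genes was 0.51, against -0.0028 for all genes tested, and 26 of 30 point estimates were above 0. An unadjusted p under 0.05 was reached by 10 of 30, against 678 of 14003 genes. Most of the synthesis enzymes varied together from liver to liver, so these counts are not 30 separate observations. The same limit holds for such counts in the other comparisons.

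Fdps (ENSMUSG00000059743, mm39 chr3:89000895-89009266, minus strand) joins isoprenoid units into farnesyl diphosphate. It stood at 11.8, 11.1 and 13.8 CPM in knockout males, against 3.56, 4.30 and 3.60 CPM in wild type males. In females it stood at 7.91, 8.61 and 6.75 CPM in knockout livers, against 5.91, 3.89 and 4.57 CPM in wild type livers. The groups overlapped in neither sex, and the lowest knockout male lay above all 9 other-group libraries. Fdps counts were low, at 76, 77 and 58 in the wild type males. How fragments shared with Gm43738 were counted is not known, so the changes below are as uncertain as the level. The part of the overlap in them was not tested. Fdps rose in males by a log2 fold change of 1.68 ± 0.22 (approximate SE, adjusted p = 0.00755) and in females by 0.69 ± 0.21 (adjusted p = 0.0253, edgeR's quasi-likelihood test with Benjamini-Hochberg adjustment). Averaged over both sexes the change was 1.19 ± 0.15 (adjusted p = 0.00383), and this call was kept in all 12 fits that left out 1 library but not with the length slope as a covariate (0.97, adjusted p = 0.0527). The male call was lost without male wild type replicate 1 (adjusted p = 0.0613) or replicate 3 (0.0520), and at a log2 fold change of 1.69 when only the male groups were fitted (0.218). In females it was lost without knockout replicate 1 (0.0502) or 2 (0.0920) and without wild type replicate 2 (0.105) or 3 (0.0717), without the filter on low counts (0.0758), and with the length slope as a covariate (log2 fold change 0.32, adjusted p = 0.767).

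Lss (ENSMUSG00000033105, mm39 chr10:76367422-76392972, plus strand) closes squalene epoxide into lanosterol, the first sterol. It stood at 128, 125 and 143 CPM in knockout males, against 46.6, 66.8 and 60.5 CPM in wild type males. In females it stood at 139.7, 90.8 and 89.0 CPM in knockout livers, against 119, 82.5 and 75.5 CPM in wild type livers. The male groups were far apart and the female groups overlapped, with replicate 1 highest in both female groups. Its log2 fold change was 1.18 ± 0.23 in males (adjusted p = 0.189) and 0.21 ± 0.23 in females (adjusted p = 0.490). Averaged over the sexes Lss rose by 0.69 ± 0.16 (adjusted p = 0.0317), a call that 3 of 12 fits with 1 library left out kept, the adjusted p ranging from 0.00663 to 0.0857. The mean change was 0.44 with a smooth length trend removed from each library (adjusted p = 0.0957) and 0.68 with the length slope as a covariate (adjusted p = 0.184).

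The other squalene enzymes had no called change. Squalene synthase, Fdft1, averaged 244 ± 31.9 CPM in knockout males, against 143 ± 26.3 CPM in wild type males, and 247 ± 93.7 CPM in knockout females, against 217 ± 33.6 CPM in wild type females. A stretch of 774 bp overlaps Ctsb on the opposite strand, which held 160090 counts against 50103 for Fdft1, and the sources used here give no strand setting for the counting. Squalene epoxidase, Sqle, averaged 182 ± 29.5 CPM in knockout males, against 107 ± 25.9 CPM in wild type males, with a log2 fold change of 0.77 and a 95% interval of 0.24 to 1.29 (adjusted p = 0.779). In females Sqle averaged 140.5 ± 34.5 CPM in knockout livers, against 148 ± 32.4 CPM in wild type livers, with an interval of -0.60 to 0.45.

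In females 11 of 30 genes passed the test, 5 higher and 6 lower in knockout livers. Over all genes tested 36.5% were called in females, 17.7% higher and 18.8% lower, so the count among the sterol genes was close to the background. The 5 that rose were the regulators Srebf2 and Scap, the prenyl enzyme Fdps, the cholesterol-esterifying Soat2 and the export half-pump Abcg8. The 6 that fell were the receptor Nr1h3, the mevalonate-step enzymes Acat2, Pmvk and Idi1, and the later enzymes Tm7sf2 and Ebp. Groups did not overlap for 14 of 30, 7 each way, against 54.8% of all genes tested, 27.6% higher and 27.1% lower. The median log2 fold change was -0.06 over the 30 genes and 0.05 over all genes tested.

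**Figure D2:**
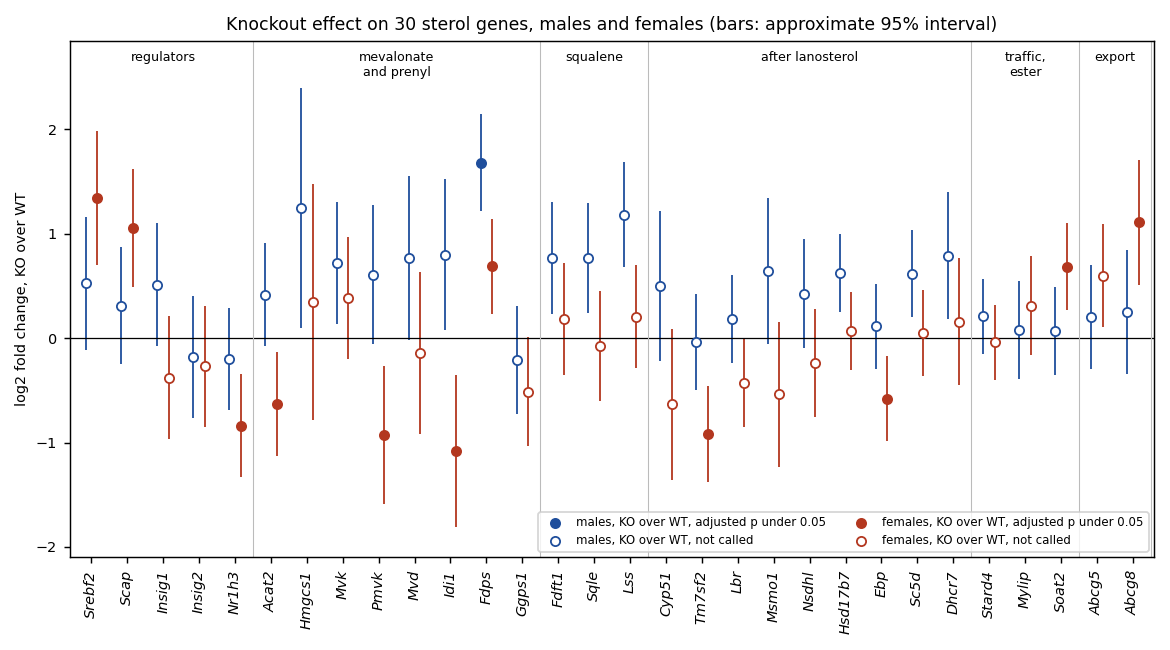
Log2 fold change of knockout over wild type for each of the 30 genes in males (blue) and females (red), with approximate 95% intervals and filled points for adjusted p under 0.05. Fdps is filled in both sexes, and 24 of 30 male estimates lie above the female estimate of the same gene.

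Among the regulators, Srebf2 (ENSMUSG00000022463, mm39 chr15:82031382-82089580, plus strand) encodes the transcription factor of the pathway. It stood at 127, 93.4 and 104 CPM in knockout females, against 51.5, 42.5 and 34.0 CPM in wild type females. The male libraries held 74.1, 39.3 and 85.0 CPM in knockout livers, against 38.7, 64.0 and 35.3 CPM in wild type livers. The 3 knockout females were the highest of all 12 libraries, and the male groups overlapped. Srebf2 rose in females by 1.34 ± 0.30 (adjusted p = 0.0140) and had a log2 fold change of 0.53 ± 0.30 in males (adjusted p = 1.00). The mean over the sexes was 0.93 ± 0.21 (adjusted p = 0.0305).

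Scap (ENSMUSG00000032485, mm39 chr9:110162356-110214018, plus strand), the escort of Srebf2, followed the same order of groups. Its level was 250.1, 189.6 and 206 CPM in knockout females, against 116, 89.9 and 106 CPM in wild type females. In males it was 164, 95.7 and 184 CPM in knockout livers, against 104, 161 and 92.1 CPM in wild type livers. Every knockout female lay above every other library, and the male groups overlapped. Scap rose in females by 1.05 ± 0.26 (adjusted p = 0.0147), had a log2 fold change of 0.31 ± 0.26 in males (adjusted p = 1.00), and rose in the mean over the sexes by 0.68 ± 0.18 (adjusted p = 0.0380).

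Insig1 (ENSMUSG00000045294, mm39 chr5:28276361-28283660, plus strand), which retains Scap and is itself a target of Srebf2, had no called change. It stood at 327, 489 and 283 CPM in knockout females, against 389.8, 609.5 and 431 CPM in wild type females. Levels in males were 593, 798 and 528 CPM in knockout livers, against 468, 316 and 559 CPM in wild type livers. The groups overlapped in both sexes. Its log2 fold change was 0.51 ± 0.27 for males (adjusted p = 1.00) and -0.38 ± 0.27 for females (adjusted p = 0.282). Insig2, its paralog, averaged 118 ± 12.8 CPM in knockout females, against 142 ± 41.2 CPM in wild type females, and 111 ± 16.0 CPM in knockout males, against 125 ± 44.3 CPM in wild type males, and no comparison called it.

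Nr1h3 (ENSMUSG00000002108, mm39 chr2:91014406-91033179, minus strand) was lower in female knockout livers. Its level was 127, 111 and 118 CPM in knockout females, against 204, 254 and 179.9 CPM in wild type females. In males it stood at 125, 184 and 109 CPM in knockout livers, against 158, 126 and 198 CPM in wild type livers. The female groups were apart and the male groups overlapped. Nr1h3 fell by 0.84 on the log2 scale in females (SE 0.23, adjusted p = 0.0173) and by 0.52 in the mean over the sexes (SE 0.16, adjusted p = 0.0471), with a log2 fold change of -0.20 ± 0.23 in males (adjusted p = 1.00).

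Of the mevalonate and prenyl enzymes 1 of 8 was higher, 3 of 8 were lower and 4 of 8 were not called in females. Over all genes tested 17.7% were higher and 18.8% lower, and 8 genes are too few to compare the shares closely. Acat2 (ENSMUSG00000023832, mm39 chr17:13161777-13179634, minus strand), the cytosolic thiolase that makes acetoacetyl-CoA, stood at 124, 67.4 and 86.9 CPM in knockout females, against 172, 145 and 115 CPM in wild type females. Males had 113, 134 and 127 CPM in knockout livers, against 85.4, 83.8 and 111 CPM in wild type livers. The male groups were apart with knockout higher, while knockout female replicate 1 lay within the wild type female range. Acat2 fell in females by 0.63 on the log2 scale (SE 0.23, adjusted p = 0.0465) and had a log2 fold change of 0.42 ± 0.23 in males (adjusted p = 1.00).

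Pmvk (ENSMUSG00000027952, mm39 chr3:89361848-89376320, plus strand), the kinase that adds the last phosphate before decarboxylation, stood at 104, 45.5 and 54.5 CPM in knockout females, against 132, 135 and 120.2 CPM in wild type females. Male values were 69.7, 116 and 73.6 CPM in knockout livers, against 49.5, 44.4 and 75.6 CPM in wild type livers. The female groups were apart with knockout lower, and knockout replicate 1 lay well above the other knockout females. Pmvk fell in females by 0.93 on the log2 scale (SE 0.31, adjusted p = 0.0334) and had a log2 fold change of 0.61 ± 0.31 in males (adjusted p = 1.00).

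Idi1 (ENSMUSG00000058258, mm39 chr13:8935537-8942487, plus strand) converts isopentenyl diphosphate to its reactive isomer. It stood at 109, 66.8 and 95.03 CPM in knockout females, against 197, 248 and 127 CPM in wild type females. In males it stood at 211, 239 and 148 CPM in knockout livers, against 85.3, 79.1 and 179 CPM in wild type livers. The female groups were apart with knockout lower, and the male groups overlapped through wild type replicate 3. Idi1 fell in females by 1.08 on the log2 scale (SE 0.34, adjusted p = 0.0273) and had a log2 fold change of 0.80 ± 0.34 in males (adjusted p = 0.976). Processed pseudogenes of Idi1 are annotated, and the 2 with most counts, Idi1-ps2 and Idi1-ps1, held 481 and 470 counts in all, against 33032 for Idi1.

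Other enzymes of these steps had no called change. Hmgcs1, which condenses acetoacetyl-CoA into HMG-CoA, stood at 890.1, 189.9 and 299.7 CPM in knockout females, against 405, 406 and 270.2 CPM in wild type females. Levels in males were 466, 396 and 416 CPM in knockout livers, against 80.1, 133 and 325 CPM in wild type livers. The knockout females alone spanned more than the whole range of the other 9 libraries, and the 95% interval of the female log2 fold change was -0.78 to 1.48. In males the change was 1.25 ± 0.53 (adjusted p = 0.980). Mevalonate kinase, Mvk, averaged 86.7 ± 15.2 CPM in knockout males, against 52.6 ± 13.0 CPM in wild type males, and 73.8 ± 24.5 CPM in knockout females, against 56.4 ± 13.1 CPM in wild type females. The decarboxylase Mvd averaged 64.8 ± 13.4 CPM in knockout males, against 38.1 ± 16.8 CPM in wild type males, and 69.8 ± 37.4 CPM in knockout females, against 76.8 ± 14.6 CPM in wild type females. Ggps1, which extends farnesyl to geranylgeranyl diphosphate, averaged 4.88 ± 0.98 CPM in knockout males, against 5.64 ± 1.30 CPM in wild type males, and 3.64 ± 0.52 CPM in knockout females, against 5.20 ± 0.40 CPM in wild type females. It was the only mevalonate or prenyl gene with a male point estimate below 0, at -0.21.

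**Figure D3:**
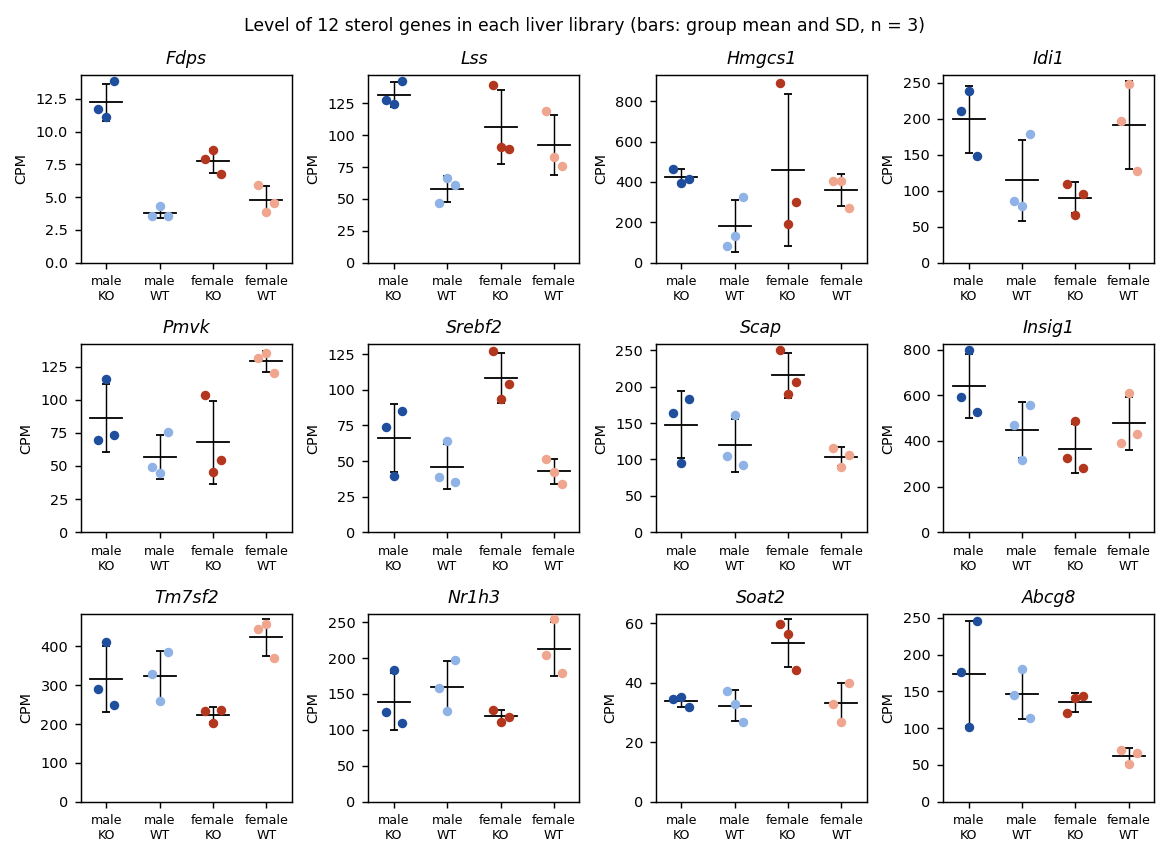
CPM of 12 of the genes in each library (points), with the group mean and SD (bars, n = 3). Fdps groups are apart in both sexes, Srebf2 and Scap are highest in the 3 female knockout livers, and Hmgcs1 ranges from 189.9 to 890.1 CPM within that one group.

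After lanosterol, 0 of 9 enzymes rose and 2 of 9 fell in females, against 17.7% higher and 18.8% lower over all genes tested. Tm7sf2 (ENSMUSG00000024799, mm39 chr19:6112851-6118403, minus strand), a sterol reductase of the endoplasmic reticulum, stood at 232, 202 and 237 CPM in knockout females, against 444, 457 and 369 CPM in wild type females. Its male levels were 291, 410.5 and 248 CPM in knockout livers, against 329, 258 and 385 CPM in wild type livers. The female groups were far apart and the male groups overlapped throughout. Tm7sf2 fell in females by 0.92 on the log2 scale (SE 0.21, adjusted p = 0.0142), had a log2 fold change of -0.03 ± 0.21 in males (adjusted p = 1.00), and fell in the mean over the sexes by 0.48 (SE 0.15, adjusted p = 0.0488). It shares 532 bp with Vps51 on the same strand, which held 3583 counts in all, against 72569 for Tm7sf2.

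Ebp (ENSMUSG00000031168, mm39 chrX:8051568-8059751, minus strand), the sterol isomerase, stood at 339, 224 and 273 CPM in knockout females, against 475, 392 and 381 CPM in wild type females. In males it stood at 314, 371 and 266 CPM in knockout livers, against 291, 285 and 302 CPM in wild type livers. The female groups were apart by a narrow gap and the male groups overlapped. Ebp fell in females by 0.58 on the log2 scale (SE 0.19, adjusted p = 0.0321) and had a log2 fold change of 0.11 ± 0.19 in males (adjusted p = 1.00).

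The 7 other late enzymes had no called change. Lbr, a second sterol reductase that also tethers the nuclear lamina, averaged 7.67 ± 0.53 CPM in knockout females, against 10.3 ± 1.06 CPM in wild type females, and 9.02 ± 1.15 CPM in knockout males, against 7.93 ± 1.54 CPM in wild type males. The lanosterol demethylase Cyp51 averaged 211 ± 96.3 CPM in knockout females, against 327 ± 64.4 CPM in wild type females, and 301 ± 43.9 CPM in knockout males, against 213 ± 95.7 CPM in wild type males. Msmo1, the monooxygenase that starts removal of the paired methyl groups, averaged 346 ± 132 CPM in knockout females, against 502 ± 106 CPM in wild type females, and 612 ± 122 CPM in knockout males, against 392 ± 173 CPM in wild type males. These 3 had lower means in knockout females and higher means in knockout males. Nsdhl and Hsd17b7 complete that demethylation. Nsdhl averaged 91.9 ± 19.7 CPM in knockout females, against 108 ± 38.6 CPM in wild type females, and 145 ± 13.8 CPM in knockout males, against 108 ± 14.6 CPM in wild type males. Hsd17b7 averaged 95.5 ± 9.57 CPM in knockout females, against 90.9 ± 15.6 CPM in wild type females, and 127 ± 8.19 CPM in knockout males, against 82.5 ± 9.24 CPM in wild type males. The desaturase Sc5d and the reductase Dhcr7 act last among the genes measured here. Sc5d averaged 444 ± 104 CPM in knockout females, against 429.6 ± 6.13 CPM in wild type females, and 471 ± 44.3 CPM in knockout males, against 307 ± 49.8 CPM in wild type males. Dhcr7 averaged 166 ± 50.04 CPM in knockout females, against 149 ± 48.1 CPM in wild type females, and 205 ± 48.9 CPM in knockout males, against 118 ± 24.2 CPM in wild type males.

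Of the 5 genes of sterol traffic, storage and export, 2 rose in knockout females, Soat2 and Abcg8, and 3 were not called. Over all genes tested 17.7% were higher and 18.8% lower in that comparison. Soat2 (ENSMUSG00000023045, mm39 chr15:102058961-102071904, plus strand), which esterifies cholesterol for storage and for lipoproteins, stood at 59.7, 56.2 and 44.4 CPM in knockout females, against 32.8, 26.9 and 39.9 CPM in wild type females. Male values were 34.6, 35.0 and 31.7 CPM in knockout livers, against 37.1, 32.8 and 26.7 CPM in wild type livers. The 3 knockout females were the highest of all 12 libraries. Soat2 rose in females by 0.69 ± 0.19 (adjusted p = 0.0193) and had a log2 fold change of 0.07 ± 0.19 in males (adjusted p = 1.00). The sterol carrier Stard4 averaged 133 ± 22.6 CPM in knockout females, against 136 ± 10.4 CPM in wild type females, and 167 ± 15.03 CPM in knockout males, against 144 ± 10.0 CPM in wild type males. Mylip, a ligase that marks lipoprotein receptors for breakdown, averaged 6.75 ± 0.93 CPM in knockout females, against 5.45 ± 0.24 CPM in wild type females, and 6.46 ± 1.61 CPM in knockout males, against 6.12 ± 0.61 CPM in wild type males. No comparison called Stard4 or Mylip.

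Abcg8 and Abcg5 form the heterodimer that pumps sterols into bile. Abcg8 (ENSMUSG00000024254, mm39 chr17:84983730-85007761, plus strand) stood at 120.5, 141 and 143 CPM in knockout females, against 69.7, 51.3 and 66.8 CPM in wild type females. The male libraries held 176, 101 and 245 CPM in knockout livers, against 145, 181 and 114 CPM in wild type livers. The wild type females were the lowest group, below every other library, and the male groups overlapped. Abcg8 rose in females by 1.11 ± 0.28 (adjusted p = 0.0149), had a log2 fold change of 0.25 ± 0.28 in males (adjusted p = 1.00), and rose in the mean over the sexes by 0.68 ± 0.20 (adjusted p = 0.0417). Abcg5 averaged 97.3 ± 1.45 CPM in knockout females, against 64.2 ± 14.1 CPM in wild type females, and every knockout female lay above every wild type female. Its log2 fold change of 0.60 ± 0.23 missed the threshold (adjusted p = 0.0559). Abcg5 averaged 101 ± 17.1 CPM in knockout males, against 87.6 ± 23.7 CPM in wild type males. The genes overlap by 6710 bp on opposite strands, so their counts may not be fully separate.

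Each female call was lost in at least 1 fit that left out a library. Leaving out female knockout replicate 2 or female wild type replicate 2 left 0 of 30 genes called, without knockout replicate 3 or wild type replicate 1 it was 7 of 30 each, and no called gene changed direction. Over all genes tested these fits called 4, 5, 2909 and 3956 in that order, against 5116 with every library, so calls were lost throughout. Some markers of other cell types were called in the same comparison, in which 17.7% of all genes tested were higher and 18.8% lower. Of sinusoidal endothelial markers 4 of 8 rose in knockout females (summed level 222 to 317 CPM, against 184 to 219 CPM in wild type females), and of Kupffer cell markers 3 of 10 rose (223 to 301 CPM, against 177 to 253 CPM). Cholangiocyte markers had 2 of 6 higher and 2 of 6 lower (25.2 to 37.0 CPM, against 43.8 to 50.4 CPM), stellate markers had 2 of 8 each way (253 to 306 CPM, against 292 to 332 CPM), and leukocyte markers had 2 of 4 tested higher, with Ly6g at 0 in all libraries. Of genes of other tissues 1 of 4 tested rose and 3 of 4 fell (40.5 to 58.2 CPM, against 94.2 to 172 CPM). Hepatocyte markers had 0 of 5 called, summing to 94477 to 99007 CPM in knockout females, against 83666 to 111797 CPM in wild type females, and in males 0 genes of any of these lists were called. The part of other cell types in the sterol gene results was not tested.

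As the mean over both sexes, 7 of 30 genes were called, 5 higher and 2 lower, against 15.1% of all genes tested, 7.78% higher and 7.29% lower. They were Fdps, Lss, Srebf2, Scap and Abcg8, which rose, and Nr1h3 and Tm7sf2, which fell. Leaving out male knockout replicate 2 gave 12 of 30, leaving out female knockout replicate 3 gave 2, and leaving out any other library except male wild type replicate 2 gave 1, which was Fdps. Over all genes tested these fits called 5594, 316 and 18 to 676 in that order, against 2111 with every library.

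The length slope of a library moved with several of these genes. Across all genes tested the female log2 fold change correlated with log2 gene length (r = 0.42 over 14003 genes, which are not independent), and in males r was 0.074. After subtraction of group means, the level of Abcg8 followed the slope of its library (r = 0.92 over 12 libraries), as did Scap (r = 0.74), Srebf2 (r = 0.71) and Fdps (r = 0.59), while Nr1h3 (r = -0.90), Tm7sf2 (r = -0.89) and Pmvk (r = -0.85) ran against it. Lss, Sqle and Mvk had r of 0.05, -0.08 and -0.11. With the slope as a covariate 0 of 30 genes were called in females and 2 of 30 in males, Fdps at 1.63 (adjusted p = 0.000724) and Lss at 1.18 (adjusted p = 0.0479). Over all genes tested that fit called 10 in females and 18 in males, against 5116 and 8 without the covariate. The slope ran from 0.084 to 0.288 in knockout females and from -0.229 to -0.143 in wild type females. With no overlap, slope and genotype can hardly be told apart in females, and the loss of calls there does not show which one mattered. The female log2 fold changes in that fit were 0.02 for Abcg8, 0.29 for Scap, 0.49 for Srebf2 and 0.32 for Fdps, and 0.66 for Soat2, which moved least. Of the genes that fell, Idi1 was at -0.01, Nr1h3 at -0.04, Ebp at -0.16, Acat2 at -0.19, Tm7sf2 at -0.22 and Pmvk at 0.12. Removing a smooth length trend from each library instead left 9 of 30 called in females, Fdps among them, and Fdps in males. It left 4264 called in females and 7 in males over all genes tested. In that fit Soat2 was at 1.05, Nr1h3 at -0.56, Pmvk at -0.41, Acat2 at -0.37 and Ebp at -0.25 in females, and Pmvk, Acat2 and Ebp were no longer called.

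**Figure D4:**
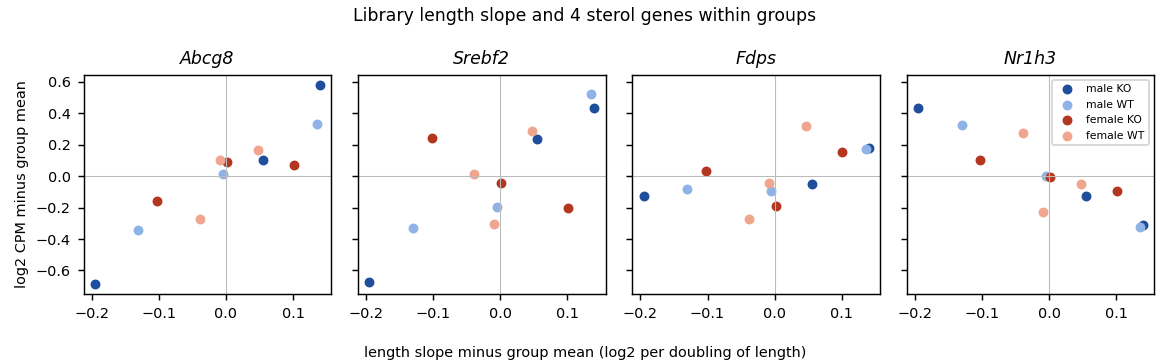
Deviation of Abcg8, Srebf2, Fdps and Nr1h3 from their group means (log2 CPM) against the deviation of the library's length slope from its group mean (log2 per doubling of length), 1 point per library. Abcg8 climbs along the slope (r = 0.92), Nr1h3 descends (r = -0.90), and Srebf2 (r = 0.71) and Fdps (r = 0.59) scatter more.

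The knockout effect was set against itself between the sexes. For 24 of 30 genes the male log2 fold change exceeded the female one, and the median difference was 0.63, against -0.03 over all genes tested. None of the 30 differences passed the edgeR test, as for 0% of all genes tested, while 15 of 30 had an unadjusted p under 0.05, against 3145 of 14003 genes. DESeq2 called 3 of 30, namely Tm7sf2, Idi1 and Acat2, and 218 genes in all. The difference was 1.88 ± 0.48 for Idi1, 1.54 ± 0.44 for Pmvk, 1.05 ± 0.33 for Acat2, 0.99 ± 0.30 for Fdps and 0.98 ± 0.32 for Lss, with an adjusted p of 0.204 each. For Srebf2 it was -0.82 ± 0.42 (adjusted p = 0.250) and for Abcg8 -0.86 ± 0.39 (adjusted p = 0.218).

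Males were also set against females within each line. In wild type livers 2 of 30 genes were called, 1 higher and 1 lower in males, against 4.49% of all genes tested, 2.1% higher and 2.39% lower. Abcg8 averaged 146 ± 33.7 CPM in wild type males and 62.6 ± 9.87 CPM in wild type females, a log2 difference of 1.23 ± 0.28 (adjusted p = 0.0223). Pmvk averaged 56.5 ± 16.7 CPM in wild type males and 129 ± 7.89 CPM in wild type females, a difference of -1.19 ± 0.31 (adjusted p = 0.0458). Every wild type male lay apart from every wild type female for both genes, yet both calls were lost in 5 of the 6 fits that left out 1 wild type library, all but that without male replicate 3 (adjusted p up to 0.117 for Abcg8 and 0.169 for Pmvk). With the length slope as a covariate both stayed called, at 0.72 for Abcg8 and -0.74 for Pmvk. Lss, at 57.97 ± 10.3 CPM in wild type males and 92.3 ± 23.2 CPM in wild type females, was apart too but not called (adjusted p = 0.123). In knockout livers edgeR called 0 of 30, against 5.4% of all genes tested, and 9 of 30 had an unadjusted p under 0.05, against 3152 of 14003 genes. DESeq2 called 4 of 30 there, and 1395 genes in all. For Idi1 the log2 difference was 1.14 ± 0.34 (adjusted p = 0.0733), with 199 ± 46.7 CPM in knockout males and 90.4 ± 21.7 CPM in knockout females. Male and female groups did not overlap for 11 of 30 genes in knockout livers, 8 higher and 3 lower in males, against 28.1% of all genes tested. In wild type livers it was 8 of 30, 1 higher and 7 lower in males, against 26.9%. The 28.1% and 26.9% take both directions together. The point estimate was above 0 for 22 of 30 genes in knockout livers and for 7 of 30 in wild type livers. The median log2 difference of the 30 genes was 0.30 in knockout livers, against -0.036 over all genes tested. In wild type livers it was -0.34, against -0.0054.

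Within groups most of the synthesis enzymes varied together from liver to liver. Over 12 libraries, after subtraction of group means, the closest pairs were Nr1h3 and Tm7sf2 (r = 0.96), Mvk and Sqle (r = 0.95) and Hmgcs1 and Mvd (r = 0.95), and the most opposed pair was Nr1h3 and Abcg8 (r = -0.94). All genes were read from the same libraries, which differ in depth and length slope, so the values are descriptive. Male wild type replicate 3 was the highest of its group for 17 of the 20 synthesis enzymes, and female knockout replicate 1 for 16 of 20. Female knockout replicate 2 was the lowest of its group for 17 of 20, and female wild type replicate 3 for 18 of 20. Among knockout males the enzymes split, with replicate 2 the highest for 9 of 20 and the lowest for 10 of 20. The summed level of the 20 enzymes was 4258, 4226 and 3711 CPM in knockout males, against 2229.8, 2373 and 3487 CPM in wild type males. In females the sum was 4504, 2301 and 2865 CPM in knockout livers, against 4335, 4076 and 3234 CPM in wild type livers. Every knockout male thus lay above every wild type male, while the females overlapped. Of the 20 enzymes Fdps had the lowest median r to the other 29 genes, at -0.0041, though its r with Lss was 0.62. Ggps1 and Lbr were low as well, with a median r of 0.13 and 0.19.

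**Figure D5:**
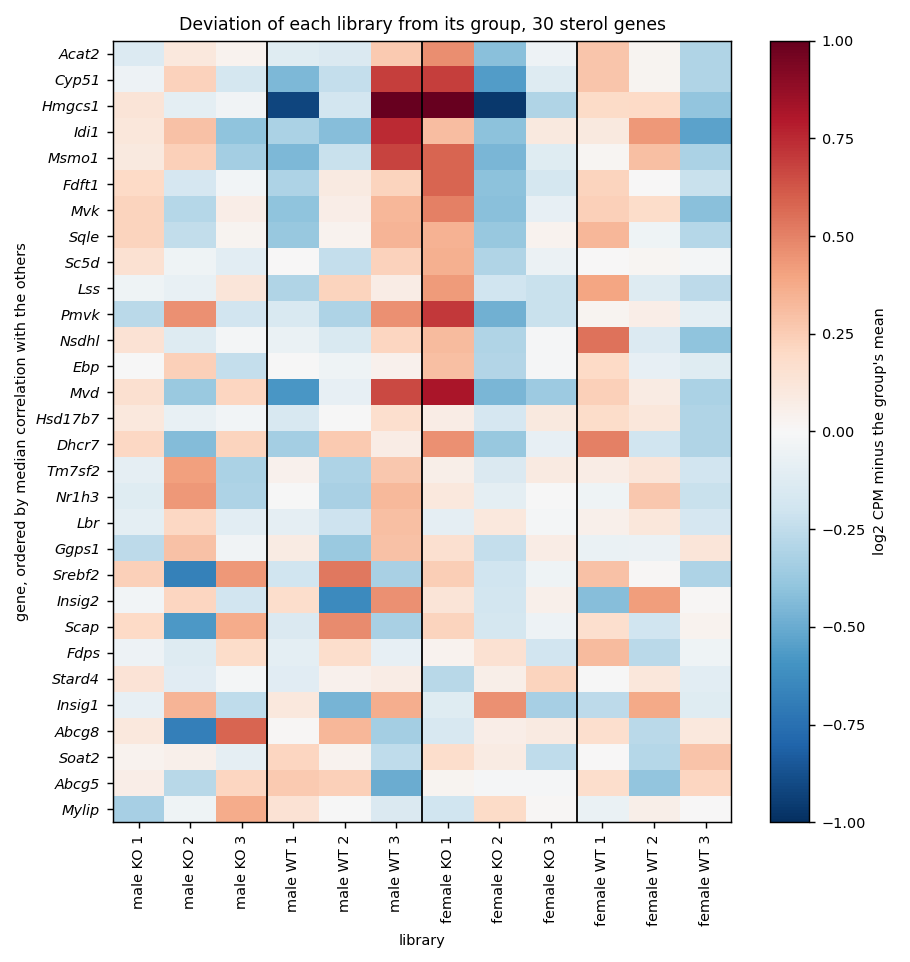
Deviation of each library's log2 CPM from its group mean for the 30 genes (colour, which saturates at 1 either way and is exceeded by Hmgcs1), genes ordered by median correlation with the others. Male wild type replicate 3 and female knockout replicate 1 are high for most enzymes, at the highest of their groups for 17 and 16 of 20.

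Other genes of sterol metabolism were counted from lists, to be read against the 17.7% of all genes tested that were higher and the 18.8% that were lower in knockout females. Of other genes of sterol synthesis and SREBP processing, 3 of 20 rose and 3 of 20 fell in knockout females. Mbtps1, the protease that makes the first cut in SREBPs, had a log2 fold change of 0.86 ± 0.28 (adjusted p = 0.0302). Of trafficking and uptake genes 4 of 20 rose and 3 of 20 fell. The endocytic receptor Lrp1 rose by 1.63 ± 0.34 (adjusted p = 0.0139) and the mitochondrial outer membrane protein Tspo fell by 1.07 on the log2 scale (SE 0.28, adjusted p = 0.0157). Of export and LXR genes 5 of 17 tested rose and 3 of 17 fell, with Lpcat3, a phospholipid-remodelling enzyme and LXR target, at 1.19 ± 0.28 (adjusted p = 0.0142). Nr1h2, the second LXR, was at 0.94 ± 0.24 (adjusted p = 0.0157), opposite in sign to Nr1h3, and Cyp7b1, an oxysterol hydroxylase, at -1.11 ± 0.24 (adjusted p = 0.0140). Of isoprenoid branch genes 2 of 17 rose and 4 of 17 fell, including Coq3 and Coq2 of ubiquinone synthesis at -1.06 ± 0.28 (adjusted p = 0.0160) and -1.05 ± 0.28 (adjusted p = 0.0164). In males 0 genes of these 4 lists were called, and 1, 1, 2 and 0 of them had an unadjusted p under 0.05.

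Among these genes Cyp7b1, Cyp39a1 and Scp2 differed between the sexes in both lines. Cyp7b1 was higher in males by a log2 difference of 4.60 ± 0.27 in knockout livers (adjusted p = 2.08e-07) and 3.85 ± 0.26 in wild type livers (adjusted p = 6.88e-07). Cyp39a1, another oxysterol hydroxylase, was lower in males by -2.27 ± 0.24 in knockout livers (adjusted p = 6.88e-05) and -3.92 ± 0.26 in wild type livers (adjusted p = 6.67e-07). The sterol carrier protein Scp2 was higher in males by 1.36 ± 0.15 in knockout livers (adjusted p = 8.73e-05) and 1.16 ± 0.15 in wild type livers (adjusted p = 0.000348).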

How the data were processed

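Poly(A)-selected liver RNA was measured in 12 libraries. The authors deposited raw counts per gene, and no column was left unused. HISAT2 2.0.5, DESeq2 and mm39 appear in the submitters' processing notes with no role, and no source used here names the counting program or strand setting. Coordinates and gene lengths are those of the table (mm39).

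Genes kept by edgeR's filterByExpr (14003 of 56748, holding 99.9% of counts) were fitted with edgeR 4.0.16 in R 4.3.3, with TMM scaling, 1 mean per group over all 12 libraries (residual degrees of freedom 8, prior 5.22) and its quasi-likelihood F test. P-values were adjusted by Benjamini-Hochberg over all genes tested in each of 6 contrasts, and called under 0.05. Standard errors and 95% intervals were back-calculated from F and are approximate. CPM uses TMM-scaled totals, and log2 CPM a prior count of 2. The biological coefficient of variation was 25.9%. Replicates differed beyond sampling noise (chi-square over its degrees of freedom between 14.9 and 136). The length slope used 9366 genes with a mean log2 CPM above 2. P-values measure the spread between these livers.

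The 30 genes and the context lists were chosen with earlier results of these data known. All 30 are given a level by group. Values in every library are given for each gene called in any contrast and for Srebf2, Scap and Insig1, plus Hmgcs1, which was added after its values were seen. From each context list up to 4 called genes of smallest adjusted p were named, and some genes that this rule takes are not reported one by one. Alternatives were median-ratio scaling, no filter, DESeq2 1.42.0, a replicate block, 2 length corrections, fits of only the groups compared, and leaving out each library. Scripts were tested on simulated data.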

Additional observations from a re-analysis of the deposited data

How the results depend on the processing

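Counts of the 30 genes called depended on the processing, as did the counts over all genes tested in each fit. In females, where 11 were called, a replicate block gave 6, the length slope as a covariate 0, leaving out 1 library 0 to 10, and leaving out both female libraries numbered 2, a choice made after seeing the data, 0. Among all genes these fits called 3365, 10, 4 to 4227, and 2 in that order, against 5116 in the main fit. In males (1 called) it was 3 without the filter, 0 with the block, 2 with the slope, 0 with only the 2 groups fitted, 2 by DESeq2, and 0 to 1 with 1 library left out, being 0 without wild type replicate 1 or 3. Among all genes these fits called 101, 6, 18, 1, 34, and 5 to 18 in that order, against 8 in the main fit. Without both male libraries of lowest slope, also chosen after seeing the data, Fdps was called at 1.73 (adjusted p = 0.0211). For the mean of both sexes (7) it was 11 without the filter, 1 with the block, 0 with the slope and 1 to 12 with 1 library left out, where the 12 came without male knockout replicate 2. Among all genes these fits called 3900, 23, 21 and 18 to 5594, against 2111 in the main fit. For the difference between sexes (0) it was 5 without the filter, 3 by DESeq2 and 0 to 0 with 1 library left out. Among all genes these fits called 1451, 218 and 0 to 2, against 0 in the main fit. For sex in knockout livers (0) it was 3 without the filter, 2 with the slope, 1 with the smooth trend removed, 1 with only the 2 groups fitted, 4 by DESeq2 and 0 to 1 with 1 library left out. Among all genes these fits called 1694, 1114, 844, 544, 1395 and 440 to 953, against 756 in the main fit. For sex in wild type livers (2) it was 5 without the filter, 0 with the block and 0 to 4 with 1 library left out. Among all genes these fits called 1700, 415 and 379 to 781, against 629 in the main fit. Of the called values of single genes, 62 kept their call and 106 lost it over the fits with 1 library left out, with 0 reversed. Over the other alternatives 99 kept it, 52 lost it and 1 reversed, Pmvk in females, at 0.12 with the slope as a covariate. The cause was not tested, and in females the slope and the genotype can hardly be told apart. Same-numbered libraries of different groups correlated at r = -0.61 to 0.28 over 18 pairs, and a library correlated best with its own number in 6 of 36 checks, so the numbers were not taken to pair the samples. With the block the adjusted p of Fdps was 0.050002 in males, just over the threshold, and 0.0538 in females, and that of Lss for the mean of both sexes was 0.0790. With 3 livers a group, a gene that was not called may still differ by any amount within its interval.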
